A study of Mus musculus with 45 samples.

Results

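Arc, Plk2, Plk3, Nptx1, Nptx2, Nptxr, Rheb and Sipa1l1 are activity-regulated genes and partner genes of synaptic scaling, the slow adjustment of synaptic strength to the firing rate of a neuron. They were found in the count table by the Ensembl identifiers that carry these 8 symbols, which made 8 of 54532 genes, each matched by 1 row. Their RNA was measured in mouse hippocampal primary neurons of the strain C57BL/6N, prepared on postnatal day 0, grown with B27 supplement and rat serum, treated with AraC against dividing cells, and stimulated on day in vitro 10 or 11. For the RNA sequencing, the methods of the study give day 11. Every condition had 5 libraries, 1 from each of 5 culture preparations numbered 1, 3, 6, 7 and 8, so that 45 libraries covered 9 conditions. Control cultures were untreated. Bicuculline (Bic, 50 µM), which blocks GABA type A receptors and so induces action potential (AP) firing, was given for 0.5, 1 or 2 h. In the short protocol (SP), 0.5 h of Bic was followed, with Bic still present, by 0.5 h of tetrodotoxin (TTX, 1 µM), a sodium channel blocker that stops AP firing, or of TTX with NMDA (30 µM). In the long protocol (LP), cultures had 1 h of Bic and then 1 h of TTX, of TTX with NMDA (TTX/NMDA), or of TBOA (50 µM), a blocker of glutamate transporters that lets glutamate spill over from synapses. The passive effect is TTX compared with Bic alone for an equal total time, the active effect is TTX/NMDA compared with TTX, the total effect is TTX/NMDA compared with Bic, and glutamate spillover is TBOA compared with 2 h Bic. The interventions model the loss of AP firing (TTX) and toxic NMDA receptor signaling on top of it.

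Synaptic scaling lowers or raises the strength of excitatory synapses mainly through the number of AMPA receptors at the surface. Arc binds the endocytic machinery and removes AMPA receptors, and Plk2, a polo-like kinase induced by activity, weakens overactive synapses by phosphorylating the Rap GTPase-activating protein Sipa1l1 (also called SPAR) and marking it for degradation. Plk3 is a related kinase of the cell stress response. The neuronal pentraxins Nptx1 and Nptx2 (Narp) are secreted proteins that cluster AMPA receptors, Nptxr is their membrane-bound receptor, and Rheb is the small GTPase that activates mTORC1 (mechanistic target of rapamycin complex 1).

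Library totals ranged from 11316580 to 81129276 counts, with a median of 26239614, and the lowest count of any of these genes was 243, for Nptx2 in a control. Levels are given as CPM, the usual scaling of a count to its library total, after TMM scaling over the 45 libraries. The 8 neuronal markers Rbfox3, Map2, Tubb3, Snap25, Syn1, Slc17a7, Gad1 and Gad2 summed to between 5796 and 7681 CPM in every library, and the 6 astrocyte markers Gfap, Aqp4, Slc1a3, Slc1a2, Aldh1l1 and S100b to between 857 and 1843 CPM. The 5 microglial markers (Cx3cr1, Csf1r, C1qa, P2ry12 and Tmem119) summed to between 4.02 and 8.35 CPM, with P2ry12 at 0 in at least 1 library. These are bulk cultures, so that fewer cells of a type and less RNA per cell cannot be told apart.

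The genes lie on 6 chromosomes of the mouse genome GRCm38. Arc covers chromosome 15 from 74669083 to 74672570 on the minus strand, Plk2 chromosome 13 from 110395046 to 110400844 on the plus strand, and Plk3 chromosome 4 from 117128655 to 117133963 on the minus strand. Nptx1 lies on chromosome 11 from 119538719 to 119547753 (minus), Nptx2 on chromosome 5 from 144545902 to 144557478 (plus), and Nptxr on chromosome 15 from 79786351 to 79804766 (minus). Rheb lies on chromosome 5 from 24802823 to 24842624 (minus) and Sipa1l1 on chromosome 12 from 82169320 to 82451786 (plus). All are protein-coding, and each value counts reads over all annotated exons of the gene. Nptxr shares 890 of its 5170 exonic bases, 17.2%, with Npcd on the same strand, and the authors did not count reads that overlapped more than 1 gene, so that the Nptxr count rests on the remaining 4280 bases.

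Upstream sequences are shown for the polo-like kinases, since Plk2 was called from 0.5 h and Plk3 from 1 h of Bic on, and the cyclic AMP response element is the DNA motif bound by the activity-regulated factor CREB. RefSeq windows of the build GRCm38.p6 were at hand for 4 of the 8 genes (Plk2, Plk3, Rheb and Sipa1l1). The 250 bases before the annotated start of transcription are printed from 5′ to 3′ on the strand of the gene, at chr13:110394794-110395043 (plus) for Plk2 and chr4:117133964-117134213 (minus) for Plk3, and the capitals mark TGACGTCA or its first 5 bases, TGACG.
Plk2: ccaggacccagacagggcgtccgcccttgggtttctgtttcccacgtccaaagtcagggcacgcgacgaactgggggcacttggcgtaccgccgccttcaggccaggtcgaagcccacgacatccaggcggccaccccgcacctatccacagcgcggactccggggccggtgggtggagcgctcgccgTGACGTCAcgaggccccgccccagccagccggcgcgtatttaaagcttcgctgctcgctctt
Plk3: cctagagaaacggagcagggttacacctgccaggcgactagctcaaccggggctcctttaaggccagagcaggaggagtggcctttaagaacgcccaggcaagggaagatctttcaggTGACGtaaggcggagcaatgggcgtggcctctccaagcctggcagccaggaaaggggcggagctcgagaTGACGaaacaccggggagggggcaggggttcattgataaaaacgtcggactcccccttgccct
The 8-base palindrome TGACGTCA started 62 bases before the Plk2 start and was found in 1.55% of all 32851 windows of this length, searched on both strands. The shorter TGACG, which the longer motif contains, was found in 17.8% of the windows, and Plk3 held it at 132 and at 63 bases before its start. Rheb held TGACG at 247 bases, and neither Sipa1l1 window held it. The EGR site GCGTGGGCG (0.536% of all windows) and the CArG box, the motif of serum response factor (1.47%), were in none of the windows of these 4 genes. A match describes the letters of these windows and is not evidence of binding.

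Changes are called by edgeR (quasi-likelihood test) at a p-value under 0.05 after Benjamini-Hochberg adjustment across all genes tested, and log2 fold changes are given with standard errors (SE). In the time course of Bic, 2 of the 8 genes were called after 0.5 h, 4 after 1 h and 5 after 2 h compared with the control, each of them upward. Over all genes, 0.289% of 30133, 1.16% of 30765 and 9.02% of 30929 were called at these times. The median log2 fold change of the 8 genes was 0.11, 0.26 and 0.64, where that of all genes tested was -0.01 each time. In these edgeR calls, Arc was “early” upregulated (called at 1 h, with its highest mean there), and Plk2, Plk3, Nptx2 and Rheb were “late” upregulated (called at 2 h, with means that rose from 0.5 to 1 h and on to 2 h). Nptx1, Nptxr and Sipa1l1 were not called at any of the 3 times, although Nptxr, whose means also rose from 0.5 h on, was called at 2 h by DESeq2 (adjusted p = 0.031). The plot of levels by library shows all 8 genes on their own scales.

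**Figure D1:**
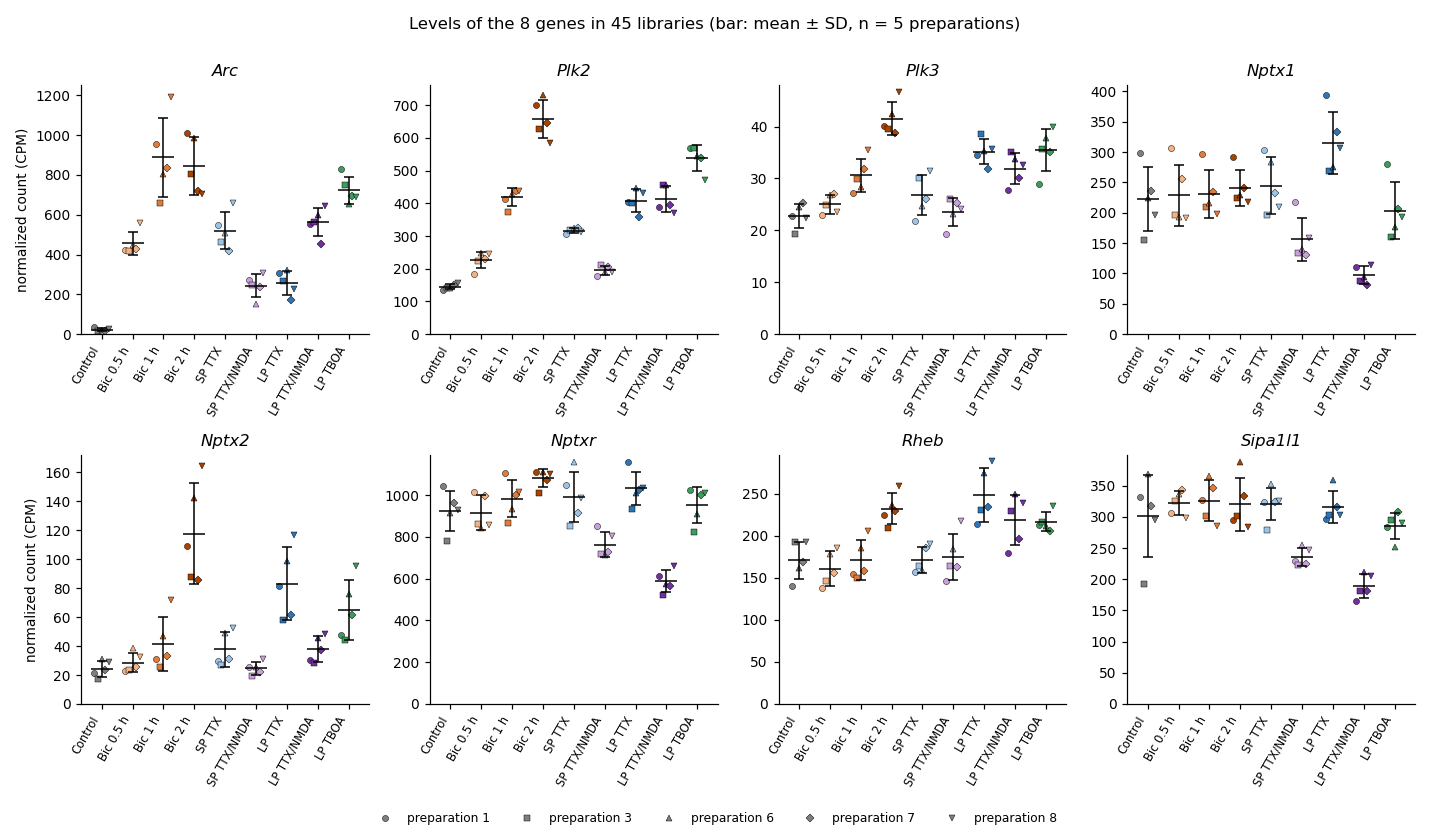
Normalized counts (CPM, linear axes from 0) of the 8 genes in the 9 conditions. Each symbol is 1 library, its shape gives the culture preparation, and the bar is the mean with SD of 5 preparations. Arc is at 22.8 CPM in the controls and at 889 CPM after 1 h Bic, while Nptx1, Nptxr and Sipa1l1 have their lowest means with LP TTX/NMDA.

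Arc was the gene of this set with the largest change at each time in Bic. Its level in the controls was 36, 16, 19.6, 16.9 and 25.7 CPM in preparations 1, 3, 6, 7 and 8. After 0.5 h Bic the same preparations had 425, 419, 446, 428 and 560.3 CPM, and after 1 h they had 955, 660.3, 804, 836 and 1191 CPM. Each library after 1 h was above each after 0.5 h, and all were above the controls. After 2 h the levels were 1012, 802, 987, 719.7 and 702 CPM, which overlapped with those after 1 h. The log2 fold changes from the control were 4.35 ± 0.14, 5.31 ± 0.16 and 5.23 ± 0.16 (SE, adjusted p = 2.4e-32, 2.3e-26 and 9.6e-24), that is 20.4-fold, 39.7-fold and 37.5-fold. Among the 13592 genes with a mean of at least 1 CPM, ordered from the largest log2 fold change down, Arc was in place 2 after 0.5 h, place 3 after 1 h and place 6 after 2 h. From 1 to 2 h it had a log2 fold change of -0.08 ± 0.10 (adjusted p = 0.77), with 3 preparations higher and 2 lower.

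Stopping AP firing lowered Arc in both protocols, and more in the LP. With SP TTX the 5 preparations had 546, 463, 510.4, 417 and 659 CPM, against 889 ± 199 CPM after 1 h Bic (SD, n = 5). With LP TTX they had 309, 265, 321, 172 and 225 CPM, against 845 ± 147 CPM after 2 h Bic. The ranges did not overlap in either comparison, and within preparations Arc fell by 40.8% ± 7.83 in the SP and fell by 69.6% ± 3.74 in the LP (SD, n = 5, lower in 5 of 5 preparations each). The log2 fold changes were -0.78 ± 0.11 (adjusted p = 7.8e-06) and -1.72 ± 0.11 (adjusted p = 1.5e-12), and the test of their difference, LP minus SP, gave -0.95 ± 0.18 (adjusted p = 0.0056; 0.256% of 34313 genes were called in this test). That difference was not called among the genes that pass a low-count filter (adjusted p = 0.077), and was called in 10 of 11 alternatives. Compared with the level at which TTX was added, SP TTX had a log2 fold change of 0.18 ± 0.09 from 0.5 h Bic (adjusted p = 0.95) and LP TTX one of -1.79 ± 0.12 from 1 h Bic (adjusted p = 1.7e-14). With LP TTX, 6 of the 8 genes were called above the control, against 6.75% of 31694 genes, and Nptxr, higher in 5 of 5 preparations (log2 fold change 0.14 ± 0.09, adjusted p = 0.45), was called with the preparation as a block (adjusted p = 0.028). Arc with LP TTX was still 11.4-fold above the control (log2 fold change 3.52 ± 0.16, adjusted p = 3e-19).

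Compared with TTX alone, NMDA on top of TTX moved Arc in opposite directions in the SP and the LP. In the SP, TTX/NMDA left 272, 248, 154, 239 and 308 CPM, every library below every SP TTX library, and the level fell by 52.5% ± 10.5 within preparations (log2 fold change -1.10 ± 0.12, adjusted p = 5.1e-08). In the LP, TTX/NMDA gave 556, 565, 599.6, 451 and 642 CPM, every library above every LP TTX library, and the level rose by 126% ± 46.7 within preparations (log2 fold change 1.12 ± 0.11, adjusted p = 6.2e-09). The direction held in 5 of 5 preparations each time. The difference between the active effects, LP minus SP, was 2.23 ± 0.20 on the log2 scale (adjusted p = 2.4e-10; 2.57% of 35027 genes were called), place 11 among 13592 expressed genes. Compared with uninterrupted Bic, Arc fell in both protocols, with total effects of -1.87 ± 0.13 in the SP (adjusted p = 9.7e-14) and -0.60 ± 0.09 in the LP (adjusted p = 5.4e-06). Arc also ended below the level at which TTX/NMDA was added, in both protocols. Its means were 244 against 456 CPM in the SP (adjusted p = 4.2e-07) and 563 against 889 CPM in the LP (adjusted p = 2.1e-06). With LP TTX/NMDA, Arc was 25.1-fold above the control (log2 fold change 4.65 ± 0.15, adjusted p = 9.4e-25).

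In ascending order, the mean level of Arc was 22.8 CPM in the control, 244 with SP TTX/NMDA, 258 with LP TTX, 456 after 0.5 h Bic, 519 with SP TTX, 563 with LP TTX/NMDA, 722 with LP TBOA, 845 after 2 h and 889 after 1 h Bic. The ranges of neighbours were separate between the control and SP TTX/NMDA, between LP TTX and 0.5 h Bic, and between LP TTX/NMDA and LP TBOA. All other neighbours overlapped.

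**Figure D2:**
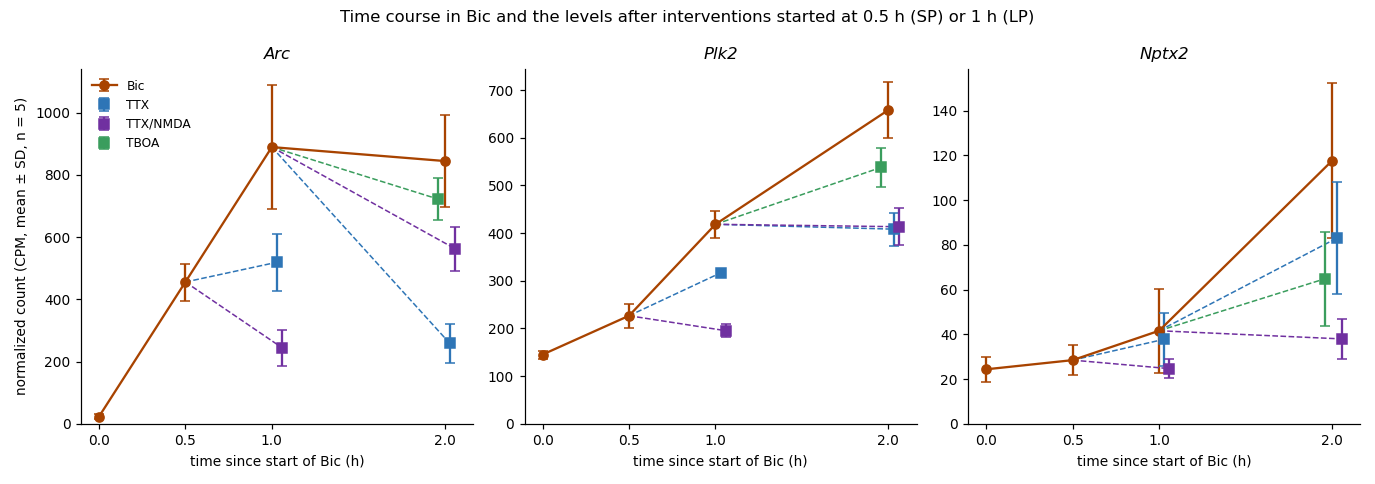
Mean normalized count ± SD (CPM, n = 5 preparations) of Arc, Plk2 and Nptx2 against the time since the start of Bic in h. The solid line is uninterrupted Bic, and dashed lines lead from the Bic level at which the intervention began to TTX, TTX/NMDA or TBOA, drawn slightly beside 1 and 2 h. Arc with LP TTX/NMDA (563 CPM) is above LP TTX (258 CPM), whereas both stand at about the same level for Plk2 (413 and 408 CPM).

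Plk2 rose at every step of Bic. Its levels in preparations 1, 3, 6, 7 and 8 were 136, 142, 141, 150.1 and 157 CPM in the controls and 185, 224, 249.6, 230.3 and 244 CPM after 0.5 h. After 1 h they were 412, 373, 429.8, 438 and 439 CPM, and after 2 h 700.0, 628, 731, 647 and 585 CPM. No range overlapped with the range of the time before. The log2 fold changes from the control were 0.64 ± 0.09, 1.52 ± 0.08 and 2.17 ± 0.08 (adjusted p = 7.1e-07, 2.8e-18 and 3e-21). The steps from 0.5 to 1 h and from 1 to 2 h were 0.88 ± 0.08 (adjusted p = 8.1e-15) and 0.65 ± 0.07 (adjusted p = 6.6e-09). In these steps 3 and 4 of the 8 genes were called, against 0.677% of 30267 and 5.33% of 30975 genes. From 1 to 2 h, Nptxr was higher in 5 of 5 preparations and was called only with the preparation as a block (adjusted p = 0.016, against 0.40 without it).

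Relative to uninterrupted Bic, Plk2 with TTX fell by 24.1% ± 5.38 in the SP and fell by 37.6% ± 7.19 in the LP within preparations (SD, n = 5). The SP TTX libraries had 306, 317, 325, 323 and 312 CPM and the LP TTX libraries 404, 400.2, 447, 358 and 432 CPM, all below the Bic libraries of the same duration. The log2 fold changes were -0.41 ± 0.07 (adjusted p = 0.00034) and -0.70 ± 0.07 (adjusted p = 9.3e-09), and their difference was not called (-0.29 ± 0.09, adjusted p = 0.38). From the level at which TTX was added, Plk2 went on to rise in the SP (log2 fold change 0.47 ± 0.08 from 0.5 h Bic, adjusted p = 2.6e-05; 0.315% of 31379 genes called). In the LP its change from 1 h Bic was -0.04 ± 0.07 (adjusted p = 0.76).

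NMDA lowered Plk2 in the SP and left it within the spread of TTX in the LP. SP TTX/NMDA had 178, 212, 190.0, 205 and 190.2 CPM, all below the SP TTX libraries, with a log2 fold change of -0.71 ± 0.06 (adjusted p = 1.6e-09). LP TTX/NMDA had 389, 455, 454, 396 and 371 CPM, a change of 0.01 ± 0.07 (adjusted p = 0.95) with 3 preparations higher and 2 lower. The 2 active effects differed by 0.73 ± 0.10 (adjusted p = 2.2e-06). Relative to 0.5 h Bic, SP TTX/NMDA had a log2 fold change of -0.23 ± 0.08 (adjusted p = 0.087), which was called in the fit with the preparation as a block (adjusted p = 0.0043). In the order of its mean levels, Plk2 had its only overlapping neighbours in SP TTX/NMDA and 0.5 h Bic (195 and 227 CPM) and in LP TTX, LP TTX/NMDA and 1 h Bic (408, 413 and 418 CPM).

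Plk3 was called later than Plk2 in Bic, from 1 h on. It had 22.8 ± 2.35 CPM in the controls and 25.1 ± 1.83, 30.6 ± 3.25 and 41.5 ± 3.18 CPM after 0.5, 1 and 2 h Bic (SD, n = 5). After 2 h the 5 libraries lay between 38.8 and 46.6 CPM, above the 19.2 to 25.3 CPM of the controls. The log2 fold changes from the control were 0.13 ± 0.09 (adjusted p = 0.84), 0.41 ± 0.09 (adjusted p = 0.0072) and 0.85 ± 0.09 (adjusted p = 2.5e-09). Without preparation 8, the call at 1 h was lost (adjusted p = 0.057). The passive effect was called in the LP (-0.25 ± 0.07, adjusted p = 0.035) and not in the SP (-0.19 ± 0.09, adjusted p = 0.88), and the LP call was lost without preparation 1, 6, 7 or 8 (adjusted p = 0.077, 0.12, 0.15 and 0.13) and in a fit of all 45 libraries (adjusted p = 0.17). The LP call on Plk3 was kept with the preparation as a block (adjusted p = 0.0011). Its active effects were not called, with -0.19 ± 0.09 in the SP (adjusted p = 0.35) and -0.15 ± 0.08 in the LP (adjusted p = 0.17, and 0.041 with the preparation as a block). The total effects were called in both, at -0.38 ± 0.09 (adjusted p = 0.0061) and -0.39 ± 0.08 (adjusted p = 0.00017).

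The pentraxins Nptx1 and Nptx2 behaved differently in Bic. Nptx2 had 21.2, 17.4, 30.8, 23.2 and 29.3 CPM in the controls, 30.9, 25.2, 47.0, 32.9 and 71.9 CPM after 1 h, and 109, 87.4, 142, 85.6 and 164 CPM after 2 h. The ranges overlapped between the control and 1 h, and all libraries after 2 h were above them. Its log2 fold change was 0.22 ± 0.12 after 0.5 h (adjusted p = 0.84), 0.76 ± 0.16 after 1 h (adjusted p = 0.0049) and 2.26 ± 0.14 after 2 h (adjusted p = 1.6e-14). From 1 to 2 h it rose by a log2 fold change of 1.50 ± 0.17 (adjusted p = 8.8e-08), place 26 of 13592 expressed genes. The call at 1 h was not made with the low-count filter, DESeq2 or the fit of all 45 libraries (adjusted p = 0.20, 0.33 and 0.067). The step from 0.5 to 1 h, 0.54 ± 0.13 (adjusted p = 0.023), was lost without preparation 8 (adjusted p = 0.06) and under the same 3 settings. With the preparation as a block, both calls were made (adjusted p = 0.0011 at 1 h and 0.049 for the step). Preparations 6 and 8 had the 2 highest Nptx2 levels in 8 of the 9 conditions, the exception being SP TTX/NMDA, where preparation 1 was above preparation 6.

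Nptx1 was not called at any time in Bic, with 222 ± 52.7 CPM in the controls, 229 ± 50.9 after 0.5 h, 231 ± 39.2 after 1 h and 241 ± 30.1 CPM after 2 h (SD, n = 5). Preparation 1 had the highest level at each of these times, with 299 CPM in the control. The log2 fold change after 2 h was 0.10 ± 0.11 (adjusted p = 0.61). Nptxr had 924 ± 95.2 CPM in the controls and 1080.3 ± 43.4 CPM after 2 h Bic, higher in 5 of 5 preparations, with a log2 fold change of 0.21 ± 0.08 that was not called (adjusted p = 0.10). It was called in the fit with the preparation as a block (adjusted p = 0.0080) and by DESeq2 (adjusted p = 0.031).

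With TTX in the LP, Nptx1 rose and Nptx2 fell. Nptx1 had 394, 269, 275, 332 and 307 CPM with LP TTX, a rise of 30.8% ± 9.99 over 2 h Bic within preparations (log2 fold change 0.38 ± 0.09, adjusted p = 0.0050, higher in 5 of 5). The ranges of the groups overlapped, since preparation 1 was high in both. Nptx2 had 81.3, 57.6, 98.9, 61.1 and 116 CPM and fell by 29.5% ± 3.21 within preparations (log2 fold change -0.51 ± 0.15, adjusted p = 0.036, lower in 5 of 5). This call depended on the setting: the adjusted p was 0.13 with the low-count filter, 0.19 with DESeq2, 0.077 without preparation 1 and 2.2e-08 with the preparation as a block. In a fit of all 45 libraries neither call was made (adjusted p = 0.14 for Nptx1 and 0.23 for Nptx2). Nptxr had a log2 fold change of -0.07 ± 0.06 (adjusted p = 0.59). In the SP no pentraxin was called in the passive effect, with 0.08 ± 0.10 for Nptx1, -0.13 ± 0.17 for Nptx2 and 0.01 ± 0.08 for Nptxr. With LP TTX, Nptx1 and Nptx2 were above 1 h Bic by 0.44 ± 0.09 and 0.99 ± 0.17 on the log2 scale (adjusted p = 0.00095 and 5.1e-05). Over the same hour in Bic alone, Nptx2 rose by 1.50 ± 0.17 on that scale.

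NMDA on top of TTX lowered all 3 pentraxin genes in both protocols. In the LP, Nptx1 had 111, 87.5, 94.1, 80.9 and 114 CPM, each library below each LP TTX library, and fell by 68.7% ± 5.08 within preparations (log2 fold change -1.70 ± 0.10, adjusted p = 7e-14). It was in place 23 from the most negative log2 fold change among 13592 expressed genes. Nptx2 had 30.4, 28.2, 45.6, 37 and 48.4 CPM and fell by 53.1% ± 8.85 (log2 fold change -1.14 ± 0.15, adjusted p = 7.2e-07). Nptxr had 613, 521, 573, 567 and 661 CPM and fell by 43% ± 4.10 (log2 fold change -0.82 ± 0.07, adjusted p = 6.5e-10). No library of these 3 genes with LP TTX/NMDA reached the range of LP TTX.

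In the SP the active effects were -0.66 ± 0.11 for Nptx1 (adjusted p = 0.00013), -0.63 ± 0.13 for Nptx2 (adjusted p = 0.0028) and -0.39 ± 0.08 for Nptxr (adjusted p = 0.0017), lower in 5 of 5 preparations each. Nptx2 missed the threshold there with the low-count filter (adjusted p = 0.052), DESeq2 (adjusted p = 0.059) and the fit of all 45 libraries (adjusted p = 0.097). It was called with the preparation as a block (adjusted p = 0.0016). The active effect was larger in the LP for Nptx1, by -1.03 ± 0.17 (adjusted p = 0.00015), and for Nptxr, by -0.42 ± 0.11 (adjusted p = 0.030). The Nptxr difference was lost without preparation 1, 3 or 7 (adjusted p = 0.13, 0.063 and 0.084). For Nptx2 the difference was -0.49 ± 0.24 (adjusted p = 0.37, and 0.0038 with the preparation as a block).

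Compared with untreated cultures, LP TTX/NMDA left Nptx1 and Nptxr below the control and Nptx2 above it. Log2 fold changes were -1.19 ± 0.12 for Nptx1 (adjusted p = 3.6e-10), -0.66 ± 0.09 for Nptxr (adjusted p = 6e-07) and 0.62 ± 0.13 for Nptx2 (adjusted p = 0.00047). In this comparison all 8 genes were called, 5 up and 3 down, against 19.5% of 32092 genes. LP TTX/NMDA had the lowest mean of the 9 conditions for Nptx1 (97.6 CPM) and Nptxr (587 CPM), with ranges separate from SP TTX/NMDA, the next lowest (156 and 763 CPM). The highest means were in LP TTX for Nptx1 (316 CPM) and in 2 h Bic for Nptx2 and Nptxr (118 and 1080.3 CPM), and all other neighbours in the 3 orders overlapped.

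Rheb rose late in Bic, and its active effects were not called. Its level was 171 ± 22.2 CPM in the controls, 161 ± 20.5 after 0.5 h, 171 ± 24 after 1 h and 232 ± 18.3 CPM after 2 h. The 2 h libraries, 225, 209.6, 236, 229.9 and 259.7 CPM in preparations 1, 3, 6, 7 and 8, were all above the controls, which reached 193 CPM. The log2 fold change after 2 h was 0.43 ± 0.08 (adjusted p = 0.00041), and that from 1 to 2 h was 0.43 ± 0.08 (adjusted p = 0.00014). LP TTX, at 249 ± 31.7 CPM, had a passive effect of 0.09 ± 0.07 (adjusted p = 0.57) and a rise of 45.7% ± 6.36 over 1 h Bic within preparations (log2 fold change 0.53 ± 0.08, adjusted p = 8.2e-06). The active effects were 0.03 ± 0.08 in the SP (adjusted p = 0.91) and -0.19 ± 0.09 in the LP (adjusted p = 0.12), the latter called with the preparation as a block (adjusted p = 0.0052) and lower in 5 of 5 preparations. With LP TTX/NMDA, Rheb was still above the control (0.35 ± 0.10, adjusted p = 0.0074), a call lost without preparation 6 (adjusted p = 0.061). In the order of levels, from 161 CPM after 0.5 h Bic to 249 CPM with LP TTX, every neighbouring pair overlapped.

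Sipa1l1, the substrate of Plk2, had similar mean levels in all conditions without NMDA, from 285 CPM with LP TBOA to 326 CPM after 1 h Bic. The controls had 331, 193, 369, 318 and 295 CPM, the widest spread of the 9 conditions. After 2 h Bic its log2 fold change was 0.08 ± 0.11 (adjusted p = 0.75), and the passive effects were -0.03 ± 0.07 in both protocols (adjusted p = 0.97 in the SP and 0.88 in the LP). NMDA lowered it: SP TTX/NMDA had 229, 223, 254, 224 and 247 CPM and LP TTX/NMDA 165, 182, 211, 181 and 205 CPM, each library below every TTX library of the same protocol. The active effects were -0.45 ± 0.07 (adjusted p = 3.7e-05) and -0.75 ± 0.07 (adjusted p = 5.5e-09). Within preparations Sipa1l1 fell by 26.4% ± 4.25 in the SP and fell by 40.1% ± 4.76 in the LP. The effects differed by -0.28 ± 0.10 (adjusted p = 0.17, and 0.0038 with the preparation as a block).

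Across the interventions, 2 of the 8 genes were called in the SP passive effect and 5 in the LP passive effect, against 0.268% of 31765 and 4.65% of 31944 genes. In the SP, 6 were called in the active and 7 in the total effect, each downward, against 4.28% of 32229 and 4.30% of 31414 genes. In the LP, 5 were called in the active effect (1 up, 4 down) and 7 in the total effect (each downward), against 23.3% of 32852 and 22.8% of 32243. These shares include genes with few reads, and only 13592 genes had a mean of at least 1 CPM. The median log2 fold change of the 8 genes was -0.54 for the SP and -0.47 for the LP active effect, where that of all genes tested was 0.04 and 0.11. Over the 13592 expressed genes, the median was 0.01 and -0.01. Beside the LP active effect, the summed neuronal markers were 7215 ± 339 CPM with LP TTX and 6119 ± 223 CPM with LP TTX/NMDA, and the astrocyte markers 1097 ± 180.2 and 1397 ± 309 CPM (SD, n = 5). Single markers moved both ways. Map2, Snap25, Syn1 and Slc17a7 (957 ± 115 to 542 ± 87.2 CPM) had lower means with LP TTX/NMDA. Rbfox3, Tubb3, Gad2 and Gad1 (1023 ± 155 to 1189 ± 164 CPM) had higher ones. Slc1a2 fell from 573 ± 54.1 to 450 ± 33.9 CPM, while the other astrocyte markers rose, Gfap from 237 ± 85.7 to 414 ± 160 CPM. Of the oligodendrocyte lineage, Olig2 had 12.54 ± 4.13 and 30.0 ± 9.34 CPM, Mbp 28.3 ± 1.99 and 28.3 ± 6.98 CPM, and Mog was under 1 CPM in both. The part of these shifts in the results was not tested.

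**Figure D3:**
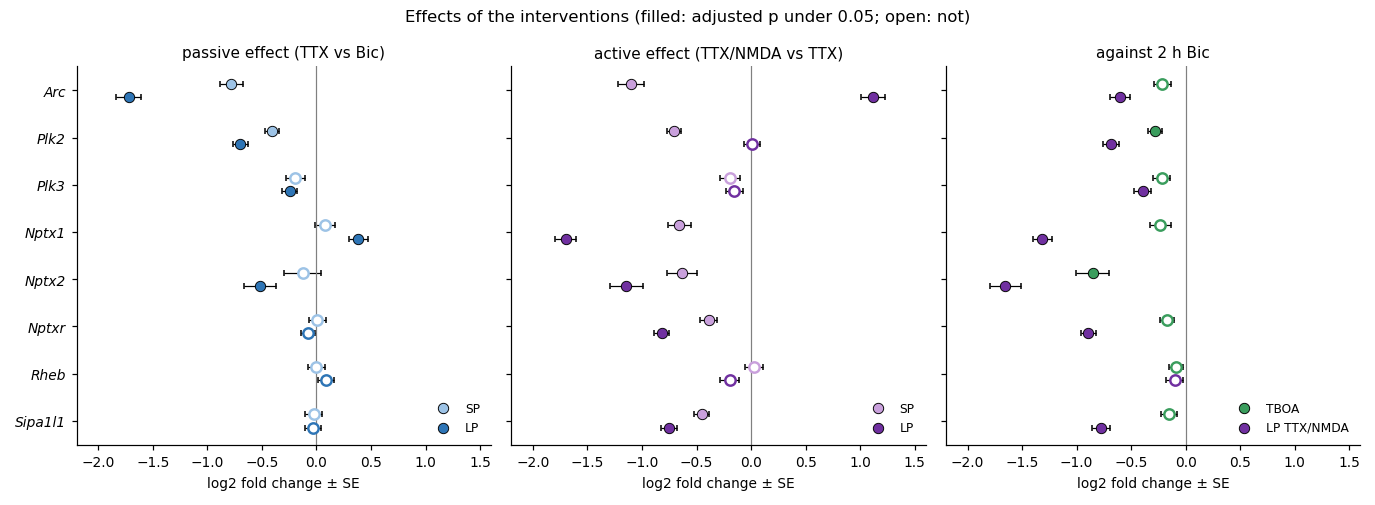
Log2 fold changes ± SE of the 8 genes, with the passive effect on the left, the active effect in the middle (lighter color SP, darker color LP) and TBOA or TTX/NMDA against 2 h Bic on the right. Filled points have an adjusted p-value under 0.05. The active effect on Arc is -1.10 in the SP and 1.12 in the LP, while Nptx1, Nptx2, Nptxr and Sipa1l1 are negative in both.

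Glutamate spillover, the milder challenge, left 2 of the 8 genes called, Nptx2 and Plk2, both lower than after 2 h Bic, against 0.602% of 31706 genes. Nptx2 had 47.5, 44.3, 75.9, 61.5 and 95.1 CPM with TBOA and fell by 44.5% ± 10.5 within preparations, lower in 5 of 5 (log2 fold change -0.85 ± 0.15, adjusted p = 0.0013), place 8 from the most negative among 13592 expressed genes. The ranges overlapped, since preparation 8 with TBOA was above the lowest libraries of 2 h Bic. Plk2 had 568, 568, 544, 539 and 469.9 CPM, all below the 585 to 731 CPM of 2 h Bic, with a log2 fold change of -0.28 ± 0.06 (adjusted p = 0.027). Neither call was made with the low-count filter (adjusted p = 0.11 for Nptx2 and 0.083 for Plk2), and DESeq2 made only the Plk2 call (adjusted p = 0.0057 against 0.096 for Nptx2). With the preparation as a block, both were called (adjusted p = 0.00017 for Nptx2 and 0.0059 for Plk2). Without preparation 1 or 6, the Plk2 call was lost (adjusted p = 0.079 and 0.12), and without preparation 8, 4 genes were called, Arc (adjusted p = 0.018) and Nptx1 (adjusted p = 0.022) among them, in a fit whose prior degrees of freedom were infinite, so that it used no spread of single genes. The other 6 genes had log2 fold changes between -0.23 for Nptx1 and -0.09 for Rheb, none called, and Nptx1 was called with the preparation as a block (adjusted p = 0.028).

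In uninterrupted Bic, Plk2, Nptx2 and Rheb rose from 1 to 2 h by 0.65 ± 0.07, 1.50 ± 0.17 and 0.43 ± 0.08 on the log2 scale. These 3 genes were also higher with LP TBOA than after 1 h Bic, with log2 fold changes of 0.36 ± 0.07, 0.64 ± 0.17 and 0.34 ± 0.07 (adjusted p = 0.00046, 0.021 and 0.0030), against 3.46% of 31654 genes called. With the preparation as a block, 5 of the 8 genes were called, the others being Plk3 (log2 fold change 0.21 in that fit, adjusted p = 0.03) and Nptx1 (-0.20, adjusted p = 0.029). The Nptx2 call was not made with the low-count filter (adjusted p = 0.19), DESeq2 (adjusted p = 0.28) or the fit of all 45 libraries (adjusted p = 0.10). From 1 h Bic to the other LP interventions, 4 genes were called with TTX (3 up, 1 down) and 5 with TTX/NMDA (1 up, 4 down), against 7.19% of 31856 and 21.1% of 32159 genes. With TTX/NMDA, Rheb was higher, and Arc, Nptx1, Nptxr and Sipa1l1 were lower. LP TTX/NMDA, which also holds TTX, was lower than TBOA for 6 of the 8 genes, against 16.6% of 32684. By log2 fold change these were -1.07 ± 0.11 for Nptx1, -0.78 ± 0.14 for Nptx2, -0.71 ± 0.08 for Nptxr, -0.60 ± 0.08 for Sipa1l1, -0.39 ± 0.08 for Plk2 and -0.37 ± 0.08 for Arc (adjusted p = 1.4e-09, 8.8e-05, 1.7e-08, 2.7e-07, 0.00023 and 0.0013). In the fit of all 45 libraries the Arc call was not made (adjusted p = 0.10). Plk3, at 31.9 against 35.5 CPM and lower in 5 of 5 preparations, was called with the preparation as a block (adjusted p = 0.04, against 0.23 without it). For Arc and Plk2, LP TTX alone also had lower means than TBOA, 258 against 722 CPM and 408 against 538 CPM.

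Per kb of exon length, on the scale of CPM per kb, Nptxr was the most abundant of the 8 transcripts in 5 of the 9 conditions and Arc in the other 4. The condition means of Nptxr lay between 114 and 209 CPM per kb, or between 137.1 and 252.4 over its unshared bases. Those of Arc lay between 7.47 CPM per kb in the controls and 291 after 1 h Bic, the widest range of the set. Plk2 lay between 32.3 and 147, Nptx1 between 18.7 and 60.5, Nptx2 between 9.60 and 46.4, Rheb between 20.9 and 32.2, Sipa1l1 between 14.7 and 25.4, and Plk3 between 9.01 and 16.4 CPM per kb.

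Over the 45 libraries, the log2 CPM values fell into groups by pattern, described here by Pearson's r, which mixes the effects of treatment and preparation. Nptx1 and Nptxr had an r of 0.93, Sipa1l1 had 0.82 with Nptxr and 0.79 with Nptx1, and Plk2 had 0.87 with Plk3 and 0.78 with Nptx2. Arc had 0.77 with Plk2 and -0.04 with Nptx1. Among 13592 expressed genes, the 3 most like Arc were Ier2, Gadd45g and Junb (r between 0.95 and 0.98), and the 3 most like Plk2 were Sik1, Spty2d1 and Maff (0.97 each). Those most like Nptx2 were Grasp, Ets2 and Nrn1 (0.92 to 0.96), those most like Plk3 were Per1, Usp36 and Lbh (0.93 to 0.94), and those most like Rheb were Ythdc1, Arf4 and Hspa14 (0.88 to 0.90). For Nptx1 they were Creg2, Nptxr and Wdr7 (0.93 each), for Nptxr Lingo1, Syngr1 and Ptprn2 (0.96 to 0.97), and for Sipa1l1 Ppp1r12b, Atrn and Kif3c (0.96 to 0.97).

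Partner genes of the same pathways were examined by list in 4 comparisons, in which 9.02% (2 h Bic), 4.65% (LP passive effect), 23.3% (LP active effect) and 0.602% (spillover) of all genes were called, with medians over all genes of -0.01, 0.01, 0.11 and 0.02 on the log2 scale. Among 12 Sipa1l1 relatives, Rap substrates and turnover factors, 2 rose and 2 fell after 2 h Bic, 2 rose and 1 fell in the LP passive effect, and 1 rose and 7 fell in the LP active effect. Sipa1l2, a paralog of Sipa1l1, rose from 85.1 ± 14.1 to 126 ± 16.8 CPM after 2 h Bic (log2 fold change 0.55 ± 0.10, adjusted p = 0.00011). The GTPase gene Rap2a rose with Bic (0.44 ± 0.07, adjusted p = 3e-05) and fell with LP NMDA from 231 ± 8.88 to 149 ± 10.4 CPM (-0.64 ± 0.07, adjusted p = 1.1e-08). Sipa1, a Rap GTPase-activating protein, rose with LP NMDA from 3.40 ± 0.732 to 5.35 ± 0.870 CPM (0.66 ± 0.15, adjusted p = 0.0014), and the GTPase genes Rap1b and Rap1a rose in the LP passive effect (0.32 ± 0.06 and 0.28 ± 0.07, adjusted p = 0.0017 and 0.018). The median log2 fold change of this list was 0.09 after 2 h Bic, -0.06 in the LP passive and -0.34 in the LP active effect. Over the 13592 expressed genes, the LP active median was -0.01, and the shares of all genes also count genes with few reads.

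Of 4 other synaptic proteins linked to Plk2, 1 rose after 2 h Bic and 3 fell in the LP active effect, against 9.02% and 23.3% of all genes, with list medians of 0.13 and -0.64. Rasgrf1, a Ras exchange factor, rose with Bic by 0.73 ± 0.13 (adjusted p = 9.8e-05) and fell with LP NMDA by 0.65 ± 0.13 on the log2 scale (adjusted p = 0.00027). Nsf, the ATPase of vesicle fusion that also binds an AMPA receptor subunit, fell from 1037 ± 71.9 to 629.9 ± 31.2 CPM with LP NMDA (-0.73 ± 0.07, adjusted p = 1.1e-09). Of the 3 other polo-like kinases, Plk4 fell after 2 h Bic from 4.92 ± 0.607 to 2.96 ± 0.549 CPM (-0.73 ± 0.15, adjusted p = 0.00064), and Plk1 rose with LP NMDA from 0.853 ± 0.132 to 1.45 ± 0.324 CPM (0.74 ± 0.21, adjusted p = 0.0094). Both are kinases of dividing cells, and both were under 5 CPM.

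Of 10 genes for Arc binding partners and turnover, none was called by edgeR after 2 h Bic (1 had an unadjusted p under 0.05), 1 rose in the LP passive effect, and 1 rose and 5 fell in the LP active effect. These counts stand beside 9.02%, 4.65% and 23.3% of all genes called, and the list medians were 0.03, -0.07 and -0.15. Ube3a, a ubiquitin ligase linked to Arc, rose with LP TTX by 0.30 ± 0.07 (adjusted p = 0.0060). Camk2b, a kinase subunit that binds Arc at inactive synapses, fell with LP NMDA from 1040.1 ± 58.1 to 779 ± 28.7 CPM (-0.42 ± 0.06, adjusted p = 5.7e-06), and Cacng2 (stargazin, an auxiliary protein of AMPA receptors) rose from 129 ± 7.44 to 170.5 ± 7.32 CPM (0.39 ± 0.06, adjusted p = 2e-05). Among 9 pentraxin partners and other pentraxins, 1 rose after 2 h Bic, and of the 8 tested in the LP active effect 1 rose and 3 fell, against 9.02% and 23.3% of all genes, with list medians of 0.07 and -0.28. Ptx3, a long pentraxin of innate immunity, rose with Bic from 4.02 ± 1.21 to 17.1 ± 7.10 CPM (2.04 ± 0.21, adjusted p = 5.2e-09). With LP NMDA, the AMPA receptor subunit Gria2 fell by 0.38 ± 0.09 (adjusted p = 0.0016) and the shedding protease Adam17 rose by 0.52 ± 0.11 on the log2 scale (adjusted p = 0.00035).

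Among 12 genes around Rheb and mTORC1, 2 fell after 2 h Bic, 1 fell in the LP passive effect, and 1 rose and 5 fell in the LP active effect. The shares of all genes called were 9.02%, 4.65% and 23.3%, and the list medians were -0.00, -0.04 and -0.05. Rhebl1, the paralog of Rheb, fell in Bic from 7.42 ± 1.00 to 4.89 ± 0.193 CPM (-0.62 ± 0.12, adjusted p = 0.00035) and rose with LP NMDA from 4.73 ± 0.581 to 7.28 ± 0.455 CPM (0.61 ± 0.12, adjusted p = 0.00025). Rps6kb1, the S6 kinase downstream of mTORC1, fell after 2 h Bic (-0.30 ± 0.07, adjusted p = 0.0051), Akt1s1, an inhibitory subunit, fell in the LP passive effect (-0.20 ± 0.06, adjusted p = 0.039), and Rptor, its scaffold, fell with LP NMDA (-0.40 ± 0.07, adjusted p = 2.4e-05). Of 11 other genes of synaptic scaling, 3 rose after 2 h Bic, 1 rose and 1 fell in the LP passive effect, 1 rose and 5 fell in the LP active effect, and 2 fell with spillover, against 9.02%, 4.65%, 23.3% and 0.602% of all genes, with list medians of 0.13, -0.04, -0.19 and -0.05. Among the called genes, the largest changes after 2 h Bic and with LP NMDA were those of Homer1, a postsynaptic scaffold, and Bdnf, a neurotrophin, which rose by 2.57 ± 0.09 and 1.50 ± 0.10 after 2 h Bic (adjusted p = 1e-22 and 1.6e-13) and fell by 2.01 ± 0.11 and 1.32 ± 0.09 with LP NMDA on the log2 scale (adjusted p = 4.2e-14 and 1.7e-12). With spillover they fell by 0.55 ± 0.06 and 0.29 ± 0.07 (adjusted p = 2.7e-06 and 0.028), and in the LP passive effect Homer1 rose by 0.35 ± 0.07 (adjusted p = 0.0016) and Rara, a retinoic acid receptor, fell by 0.27 ± 0.08 (adjusted p = 0.036). In the other 6 lists, edgeR called 0 genes with spillover, and between 0 and 2 genes a list had an unadjusted p under 0.05.

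**Figure D4:**
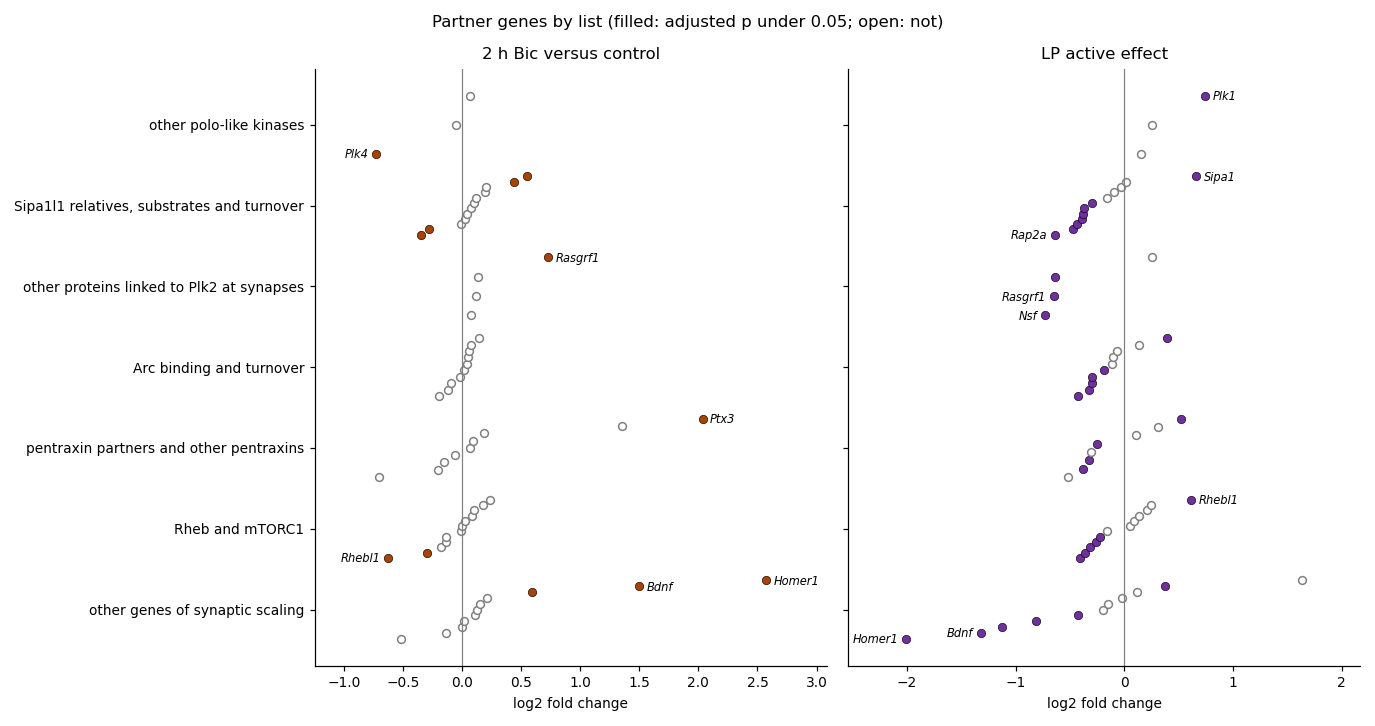
Log2 fold changes of the partner genes in 7 lists after 2 h Bic (left) and in the LP active effect (right). Each point is 1 gene, filled where the adjusted p-value was under 0.05, and called genes beyond 0.6 that the text names carry their symbol. Homer1 is farthest right among the called genes after 2 h Bic, at 2.57, and farthest left in the LP active effect, at -2.01.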

How the data were processed

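Polyadenylated RNA of 45 cultures (9 conditions, 5 preparations) was sequenced from strand-specific libraries. Per the study's methods and the labels, the authors mapped reads with STAR 2.5.4b to GRCm38 and counted them on the sense strand with featureCounts 1.6.5, leaving out reads with several mapping positions or genes. The deposited values are raw counts per gene. Genes with at least 1 read were tested per comparison with edgeR 4.0.16 (R 4.3.3; TMM, quasi-likelihood test, Benjamini-Hochberg adjustment, threshold 0.05), and the protocols were compared by an interaction term. Alternatives were filterByExpr, DESeq2 size factors, DESeq2 1.42.0, all 45 libraries in 1 fit, each preparation left out, and the preparation as a block. The blocked values beside results come from the fit with filterByExpr. The labels state the culture preparation, which pairs libraries across conditions. Deviations of same-numbered libraries had a mean r between 0.35 and 0.55 in 20 comparisons, with every pair over 0.1 in 14 of them. Comparisons share control, Bic and TTX libraries. All 8 genes were tested in every comparison, though not each is named in each one. From each partner list, the 2 called genes with the largest change were named. The genes and lists were chosen with earlier results of these data known. One summed marker list is not reported here. Gene coordinates are those of GENCODE on GRCm38.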

Additional observations from a re-analysis of the deposited data

Results flagged for a closer look

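In the 5 libraries after 0.5 h Bic, preparation 8 had 560.3 CPM of Arc, apart from the 419 to 446 CPM of the other 4. This was the only one of 72 sets of 5 libraries with a sample so far from the rest. Chance gives about 1 in 20 such sets, so that this number is not above chance.

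The effects of the same intervention differed between the protocols for 4 genes, tested as LP minus SP on the log2 scale. The passive effect on Arc differed by -0.95. The active effect differed by 2.23 for Arc, 0.73 for Plk2, -1.03 for Nptx1 and -0.42 for Nptxr. The SP and LP differ both in the time of Bic before the intervention and in the time of the intervention, which cannot be told apart.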

How the results depend on the processing

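Of 1936 values of single genes under 11 alternatives, 1842 kept their side of the threshold, 41 lost a call and 53 gained one. Of the 1842, 46 changed sign, none of them called. Of 242 counts of called genes, 18 moved by more than 1.5 times. In the LP passive effect (5 genes called), 2 were called in the fit of all 45 libraries and 3 to 5 with a preparation left out. In glutamate spillover (2), edgeR called 0 with filterByExpr, DESeq2 called 1, the replicate block over all genes called 6, and 1 to 4 were called with a preparation left out. For SP TTX against 0.5 h Bic (1), both fits with the replicate block called 2, and leaving out a preparation gave 1 to 2. For LP TBOA against 1 h Bic (3), the replicate block called 5 with filterByExpr and 7 over all genes. The difference of the passive effects (1) had 0 calls with filterByExpr and 4 with the block over all genes, and that of the active effects (4) had 7 with the latter. The block with filterByExpr gained 15 calls of single genes and lost none. The block over all genes, and 17 of 110 fits with a preparation left out (9 of them without preparation 8), were fits in which the prior degrees of freedom were infinite, and their p-values use no spread of single genes. In the spillover comparison the prior degrees of freedom were 26.4 over all genes and 6.17 with filterByExpr. Of 72 mean levels, 71 moved by less than 1 SD without TMM scaling.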
